A study of Mus musculus with 34 samples.

Results

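Collagens and other extracellular matrix genes were followed across islets of mice in which beta cells had been ablated with a toxin and of untreated mice. The set holds 43 genes, picked by gene name out of the 48709 in the deposited count table. The names were chosen with earlier results of these data known, so the set was not blind to them. All 43 were found, and all 43 passed the filter on low counts that left 17616 genes for testing. Every mouse carried the transgene RIP-DTR (labelled HTZ), untreated mice included. It places the receptor for diphtheria toxin (DT) under the rat insulin promoter. In such mice DT kills the cells in which the insulin promoter is active. Islets were taken 30 days after DT (DT 30 DPA, n = 4) and 5 days after DT (DT 5 DPA, n = 4), beside untreated islets whose labels name neither a time nor a diet (CTRL, n = 3). A second series was taken at 10 weeks. On the diet labelled HFD it had DT mice (DT HFD, n = 3), mice given 75 mg/kg streptozotocin, a toxin taken up by beta cells (STZ HFD, n = 4), and untreated mice (CTRL HFD, n = 4). On the diet labelled SD it had DT mice (DT SD, n = 4), mice given 75 mg/kg streptozotocin (STZ SD, n = 4) and untreated mice (CTRL SD, n = 3). Age, sex and the number of animals per library are not given in the labels.

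The extracellular matrix is the protein network outside cells. Fibrillar collagens are spun by fibroblasts and stellate cells into the fibres of connective tissue, while type IV collagen, laminins, nidogens and perlecan form basement membranes, the thin sheets on which epithelial and endothelial cells rest. In the pancreas the islets are enclosed by a thin capsule and their capillaries bring basement membrane into the islet. Newly made collagen chains are hydroxylated and folded in the endoplasmic reticulum, cut outside the cell and cross-linked by lysyl oxidases. Matrix metalloproteinases cut the finished matrix, and the TIMP proteins inhibit them.

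Libraries held 11083117 to 18918348 counts. Insulin-cell markers were abundant in every group, and their summed level at the lowest was 30090 CPM (each library's counts scaled to the same TMM-adjusted total) in a DT HFD library. Some libraries also held RNA of neighbouring tissue. The summed level of enterocyte markers exceeded 500 CPM in 3 of the 4 DT 5 DPA libraries (replicates 1, 2 and 4), in DT 30 DPA replicate 2, DT HFD replicate 1, CTRL replicate 2, and STZ SD replicates 1 and 4. The lymphocyte score (T and B cell markers, averaged as log2 CPM) exceeded 6 in CTRL replicates 1 and 2, in all 3 DT HFD libraries and in 9 other 10-week libraries. Acinar markers summed to 671900 CPM in STZ HFD replicate 4. TMM scaling raised the CPM of this library above its share of counts, so that sum is not a share. Its 43 matrix genes made up 0.08856% of counts and summed to 1909 CPM. No label says that replicates came from separate animals, so p-values measure the spread between these samples, which may be technical.

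The matrix genes took the largest part of the libraries at 5 DPA. Their 43 transcripts summed to between 3304 and 4359 CPM (median 3870) in DT 30 DPA, to between 8621 and 13100 CPM (median 9529) in DT 5 DPA, and to between 2480 and 4915 CPM (median 4214) in CTRL. The sums of DT 5 DPA therefore lay above those of every other group, and those of DT 30 DPA lay within the CTRL range. As a share of counts, this was 0.3101% to 0.4947% in DT 30 DPA, 1.012% to 1.349% in DT 5 DPA and 0.3057% to 0.5752% in CTRL. At 10 weeks the sums were 1663 to 2072 CPM in DT HFD, 1909 to 3025 CPM in STZ HFD, 1853 to 2492 CPM in CTRL HFD, 2070 to 3561 CPM in DT SD, 1395 to 2611 CPM in STZ SD and 1689 to 2195 CPM in CTRL SD. The highest 10-week sums reached into the DT 30 DPA and CTRL ranges, and the 10-week groups were not tested against the earlier ones.

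**Figure D1:**
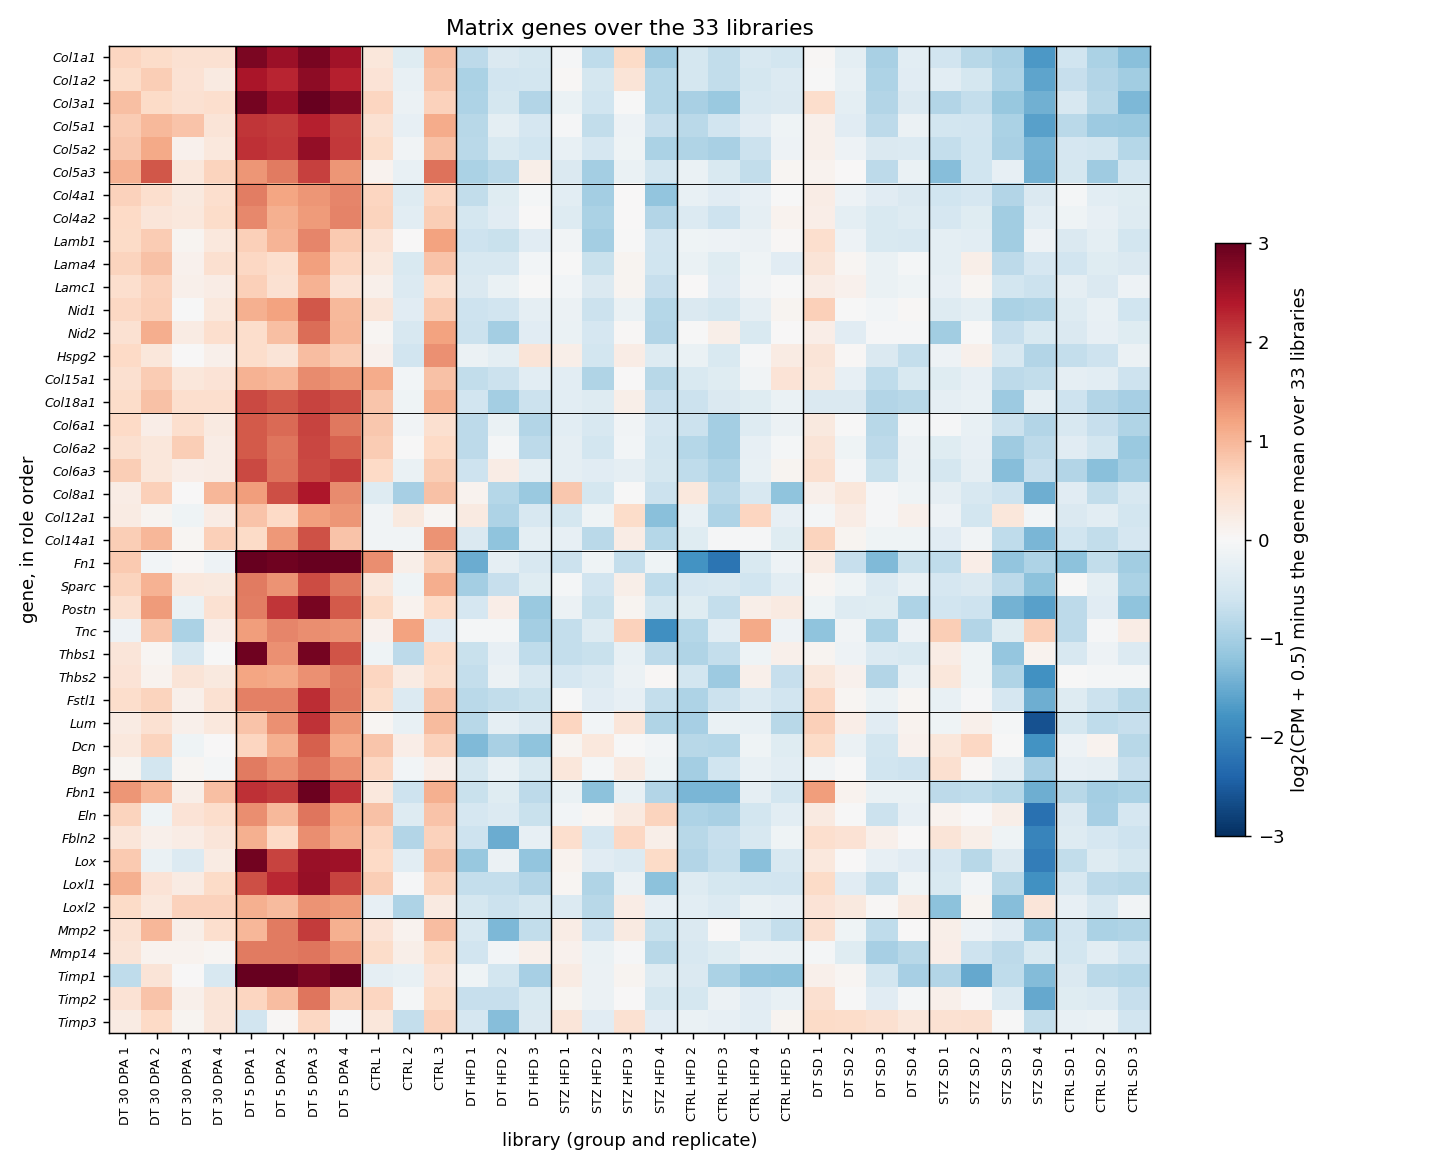
Levels of the 43 matrix genes in the 33 libraries of the 9 groups, as log2(CPM + 0.5) minus each gene's mean over the libraries. Rows are genes ordered by role, columns are libraries by group, and colour runs from -3 (blue) to 3 (red); the 4 DT 5 DPA columns are red in most rows.

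Levels were compared between genes on the authors' deposited TPM scale, which is per transcript length. In DT 5 DPA the highest mean levels were those of Sparc, a collagen-binding matrix glycoprotein, at 613.0 ± 58.2 TPM, and of Dcn (decorin, a small proteoglycan on collagen fibres) at 601.1 ± 157.6 TPM (SD, n = 4 each). Dcn was at 407.8 ± 66.8 TPM in CTRL (SD, n = 3). Col1a1, which encodes the alpha 1 chain of type I collagen, averaged 217.1 TPM in DT 5 DPA and 44.9 TPM in CTRL. Col12a1, a collagen of fibre surfaces, was among the low members, at 1.93 TPM in DT 5 DPA. The ratio of Col1a1 to Col1a2, whose protein chains assemble together in type I collagen, was 1.36 ± 0.15 in DT 30 DPA, 1.58 ± 0.10 in DT 5 DPA and 1.29 ± 0.10 in CTRL on this scale. The ratio of Col1a1 to Col4a1, an interstitial to a basement membrane collagen, was 0.601 ± 0.044 in DT 30 DPA, 1.47 ± 0.21 in DT 5 DPA and 0.596 ± 0.120 in CTRL. These ratios are descriptions and were not tested.

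At 5 DPA, 25 of the 43 matrix genes had risen against CTRL (58.1%) and 0 had fallen, by edgeR's quasi-likelihood test with Benjamini-Hochberg adjustment over all genes and a call at an adjusted p below 0.05. Over all genes tested, 5.39% were called in either direction and 3.8% were higher. The median log2 fold change was 1.11 over the 43 genes and -0.05 over all genes. The estimate lay above 0 for 42 of the 43, Timp3 being the one below. By role, 5 of 6 fibrillar collagens rose, 4 of 10 basement membrane genes, 4 of 6 other collagens, 5 of 7 adhesive and matricellular genes, 1 of 3 small proteoglycans, 4 of 6 elastic fibre and cross-linking genes and 2 of 5 proteases and inhibitors. Values of DT 5 DPA lay wholly above those of CTRL for 31 of the 43 genes, against 9.64% of all genes tested. CTRL replicate 2 had low levels of many members, and without it 20 genes were called. Without the libraries with enterocyte RNA (1 DT 5 DPA and 2 CTRL libraries remained) 13 were called, and without those with a high lymphocyte score (CTRL replicate 3 remained) 7 were. In bulk tissue, fewer cells of a type and less RNA per cell cannot be told apart, and the same holds for more of either.

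**Figure D2:**
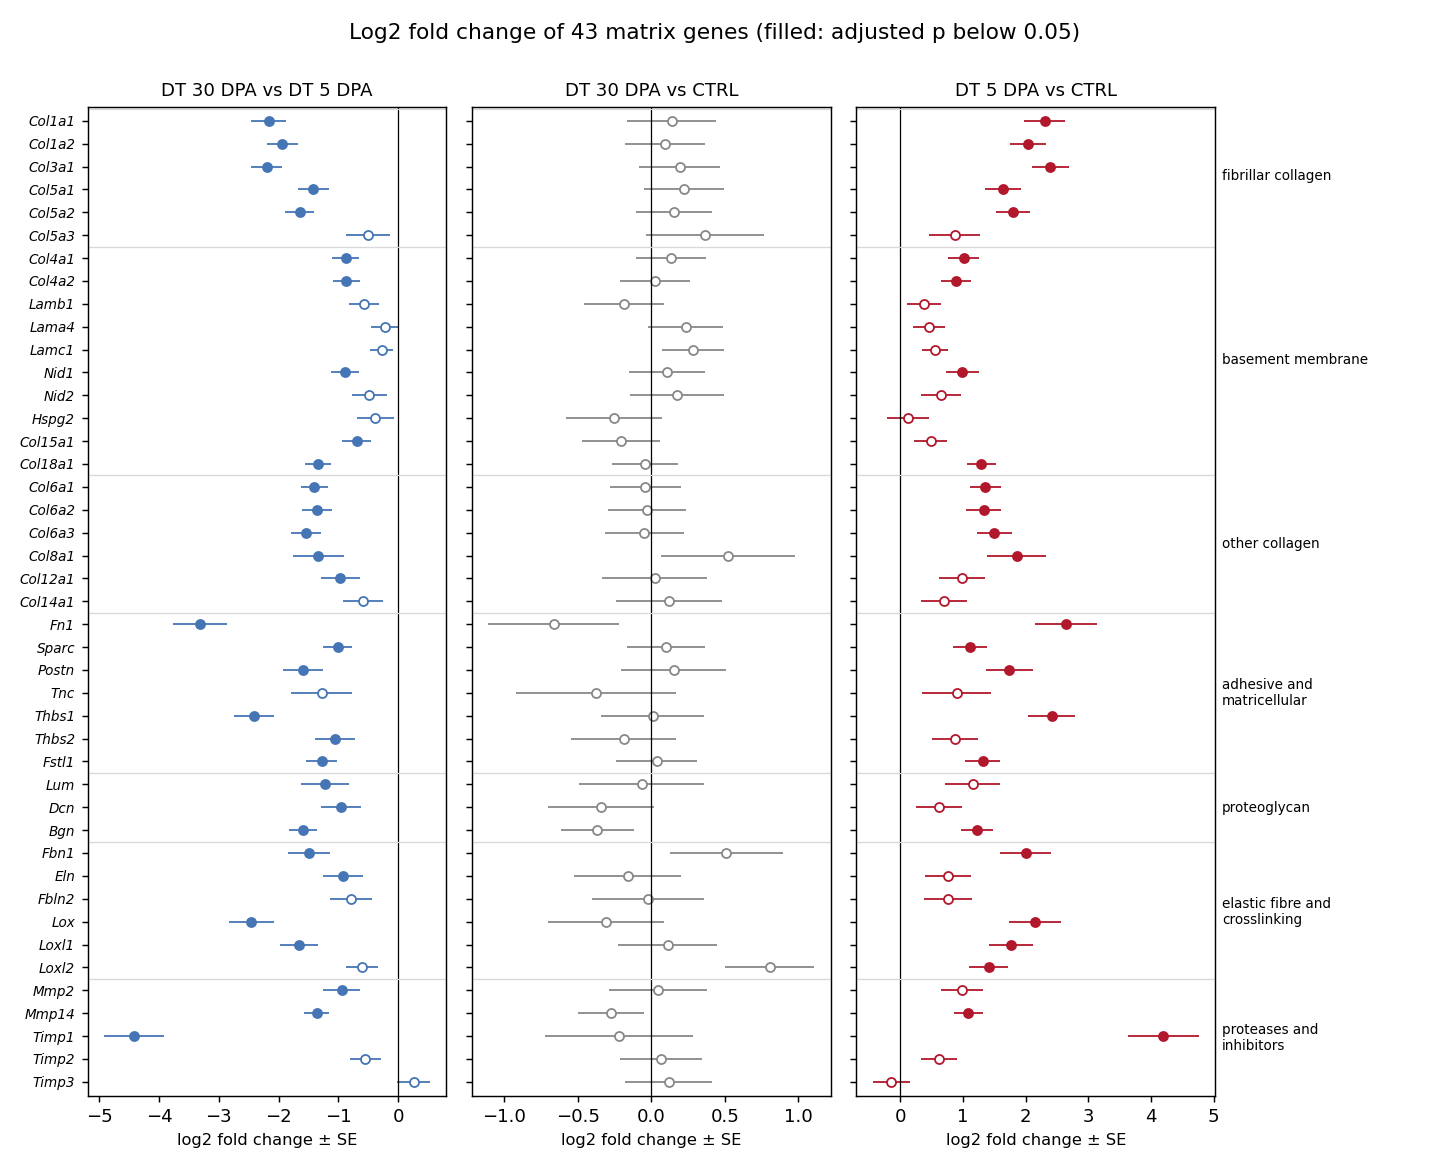
Log2 fold change ± SE of the 43 matrix genes, grouped by role, for DT 30 DPA against DT 5 DPA, DT 30 DPA against CTRL and DT 5 DPA against CTRL, with separate horizontal scales. Filled points passed an adjusted p below 0.05, which holds for 31, 0 and 25 genes.

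Fibrillar collagens rose together at 5 DPA. Col3a1 (chromosome 1, 45311538 to 45349706, plus strand), the single chain of type III collagen of compliant tissue, had 1435, 1158, 1595 and 1340 CPM in the DT 5 DPA libraries, against 301.8, 171.1 and 315.4 CPM in CTRL. The lowest DT 5 DPA library was well above the highest CTRL library, and the log2 fold change was 2.39 (SE 0.30, adjusted p = 9.88e-06). Col1a1 (chromosome 11, 94936224 to 94953042, plus strand) had 681.7, 576.5, 702.5 and 552.5 CPM in DT 5 DPA, against 122.5, 75.09 and 183.7 CPM in CTRL, without overlap (log2 fold change 2.31, SE 0.33, adjusted p = 4.97e-05). Col1a2 had 738.9, 658.5, 866.7 and 680.2 CPM in DT 5 DPA, against 180.3, 115.9 and 242.5 CPM in CTRL, again with no overlap and a fitted level 4.10-fold higher in DT 5 DPA (adjusted p = 5.01e-05). Type V collagen joins type I in fibres and helps to set their width. Of its chains, Col5a2 rose by 1.80 on the log2 scale (adjusted p = 9.75e-05) and Col5a1 by 1.64 (adjusted p = 0.000484). Col5a3 did not pass the test (log2 fold change 0.87, SE 0.40, adjusted p = 0.236). The 6 fibrillar genes summed to 668.8 to 845.3 CPM in DT 30 DPA, 2677 to 3546 CPM in DT 5 DPA and 424.3 to 907.0 CPM in CTRL.

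Start regions are shown for 3 genes with large differences at 5 DPA, Col1a2, Col3a1 and Timp1 (an inhibitor of metalloproteinases), so that a fibrillar pair and the inhibitor can be set side by side. Col1a2 was chosen for this after its values were seen. Each is the RefSeq window from 250 bases before to 50 after the start on GRCm38.p6, the assembly also called mm10, written 5′ to 3′ on the gene's strand. The windows are chr6:4505368-4505667 (+) for Col1a2, chr1:45311288-45311587 (+) for Col3a1 and chrX:20869916-20870215 (+) for Timp1. The RefSeq start of Col1a2 lies inside the gene as GENCODE M21 gives it (chromosome 6, 4504814 to 4541544). Capitals mark matches to 5 short motifs on either strand: CCAAT, the GC box GGGCGG, the AP-1 motif TGANTCA, the TATA box TATAAA and the SMAD motif CAGACA.
Col1a2: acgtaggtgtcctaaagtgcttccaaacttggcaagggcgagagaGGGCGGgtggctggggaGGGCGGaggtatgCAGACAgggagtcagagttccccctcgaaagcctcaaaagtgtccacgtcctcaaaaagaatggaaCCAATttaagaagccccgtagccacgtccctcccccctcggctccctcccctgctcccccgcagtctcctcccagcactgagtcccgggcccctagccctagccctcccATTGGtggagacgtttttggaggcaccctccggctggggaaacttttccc
Col3a1: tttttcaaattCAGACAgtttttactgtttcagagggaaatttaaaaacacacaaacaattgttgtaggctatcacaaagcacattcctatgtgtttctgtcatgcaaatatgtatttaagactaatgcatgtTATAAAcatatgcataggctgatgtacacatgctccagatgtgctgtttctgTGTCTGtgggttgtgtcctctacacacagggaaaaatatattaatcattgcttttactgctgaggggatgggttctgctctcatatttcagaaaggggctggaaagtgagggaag
Timp1: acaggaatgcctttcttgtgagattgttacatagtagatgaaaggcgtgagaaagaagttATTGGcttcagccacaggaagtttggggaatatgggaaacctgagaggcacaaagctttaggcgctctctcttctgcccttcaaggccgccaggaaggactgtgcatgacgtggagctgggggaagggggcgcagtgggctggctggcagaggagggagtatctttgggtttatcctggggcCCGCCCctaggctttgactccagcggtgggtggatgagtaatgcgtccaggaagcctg
The Col1a2 window held CCAAT at -109 and, on the opposite strand, at 1, GGGCGG at -205 and -188, and CAGACA at -175, counted from the RefSeq start. Col3a1 held TATAAA at -117 and CAGACA at -239 and, on the opposite strand, at -65. Timp1 held CCAAT at -190 and GGGCGG at -8, both on the opposite strand. RefSeq windows matched 27 of the 43 genes, 31 windows in all. GGGCGG was in 71.0% of these windows and in 35.7% of all 32851 windows, CCAAT in 38.7% and 37.4%, CAGACA in 29.0% and 21.0%, TATAAA in 16.1% and 13.6%, and TGANTCA in 3.23% and 7.81%. A match is a string of letters in the window and not evidence of binding.

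**Figure D3:**
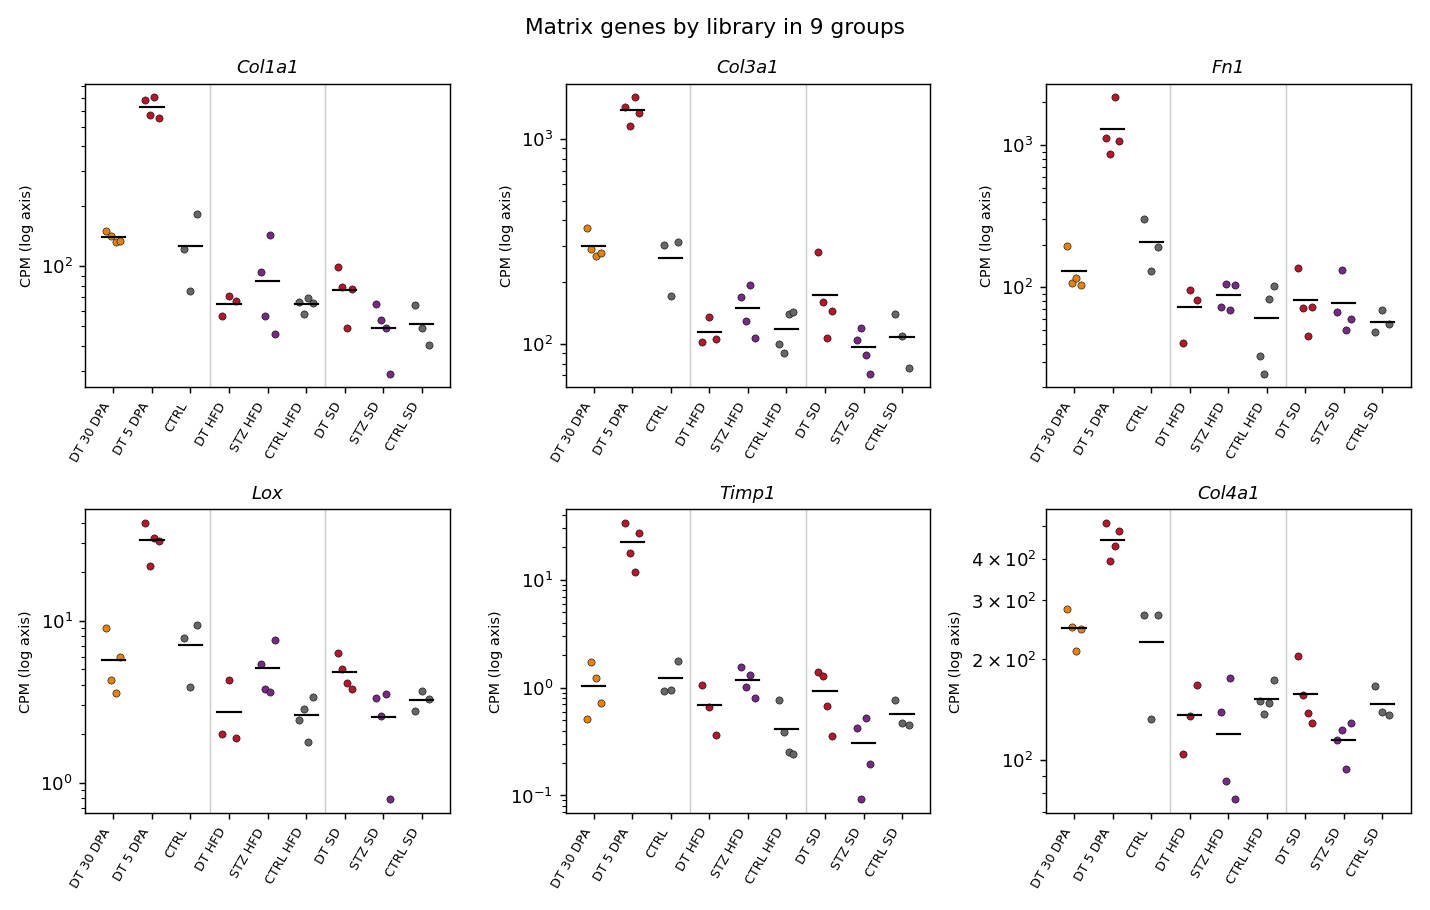
Level of Col1a1, Col3a1, Fn1, Lox, Timp1 and Col4a1 in every library (points, CPM on a log axis) with the group mean (bar). In all 6 panels the 4 DT 5 DPA points lie above every DT 30 DPA and CTRL point.

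Basement membrane genes moved less at 5 DPA, and 6 of the 10 did not pass the test. Col4a1, a chain of the network-forming type IV collagen, had 510.5, 394.9, 435.2 and 484.3 CPM in DT 5 DPA, against 272.4, 133.1 and 271.8 CPM in CTRL. The groups did not overlap, but CTRL replicate 2 was low, and the 2.02-fold rise (SE 0.24 on the log2 scale, adjusted p = 0.0112) did not pass without that library. Its partner chain Col4a2 rose by 0.89 (adjusted p = 0.0271), and this too was lost without CTRL replicate 2, or without DT 5 DPA replicate 1 or 4. Nid1 (nidogen 1, a linker of laminin and collagen IV networks) rose by 0.99 (adjusted p = 0.0223), and lost its call when replicate 1 or 2 of CTRL, or replicate 3 of DT 5 DPA, was left out. Col18a1, the precursor of endostatin, had 114.0, 105.4, 116.9 and 110.6 CPM in DT 5 DPA, against 51.22, 25.89 and 59.29 CPM in CTRL, and rose 2.46-fold (adjusted p = 0.000732). Hspg2, which encodes perlecan, had 112.7, 101.1, 148.5 and 131.8 CPM in DT 5 DPA, against 85.13, 52.20 and 202.0 CPM in CTRL. The CTRL values enclosed those of DT 5 DPA, and the log2 fold change was 0.13 (SE 0.33, adjusted p = 0.887). The laminin chain Lamb1 also overlapped, with 63.32 to 106.2 CPM in DT 5 DPA and 38.89 to 89.95 CPM in CTRL (log2 fold change 0.38, SE 0.27, adjusted p = 0.480).

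Col4a1 (chromosome 8, 11198423 to 11312826, minus strand) and Col4a2 (chromosome 8, 11312805 to 11449287, plus strand) start head to head in GENCODE M21 on GRCm38 and overlap by 22 bases. Their start windows are shown because the pair shares 78 bases of them. They are chr8:11312777-11313076 (-) for Col4a1 and chr8:11312555-11312854 (+) for Col4a2, on the same assembly and with capitals as above, and the pair was chosen after its values were seen.
Col4a1: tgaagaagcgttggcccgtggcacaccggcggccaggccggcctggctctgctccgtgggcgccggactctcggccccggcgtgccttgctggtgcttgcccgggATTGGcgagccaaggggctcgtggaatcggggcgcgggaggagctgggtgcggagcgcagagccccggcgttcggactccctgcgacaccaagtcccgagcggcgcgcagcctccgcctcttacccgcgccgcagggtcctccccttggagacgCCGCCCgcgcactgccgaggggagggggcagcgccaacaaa
Col4a2: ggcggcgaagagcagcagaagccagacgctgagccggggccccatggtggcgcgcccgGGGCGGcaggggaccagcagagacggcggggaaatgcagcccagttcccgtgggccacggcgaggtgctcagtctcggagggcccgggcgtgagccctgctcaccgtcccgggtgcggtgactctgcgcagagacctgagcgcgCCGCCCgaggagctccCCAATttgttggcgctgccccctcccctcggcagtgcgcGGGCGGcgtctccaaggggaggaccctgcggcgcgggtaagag
Col4a1 held CCAAT at -145 and GGGCGG at 10, both on the opposite strand. Col4a2 held CCAAT at -32 and GGGCGG at -192, at 8 and, on the opposite strand, at -48. The GGGCGG at 10 in Col4a1 and the one at 8 in Col4a2 are the same bases, inside the 78 shared. This site is thus counted in both windows. The TPM ratio of Col4a1 to Col4a2 was 1.65 ± 0.08 in DT 5 DPA (SD, n = 4) and 1.51 ± 0.03 in CTRL (SD, n = 3), values that were not tested.

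Among the other collagens, the 3 chains of type VI, a beaded-filament collagen found around cells, all rose at 5 DPA. Col6a1 had 220.1, 197.6, 250.2 and 183.7 CPM in DT 5 DPA, against 106.8, 56.87 and 85.16 CPM in CTRL, without overlap (log2 fold change 1.36, SE 0.25, adjusted p = 0.000952). Col6a3 rose 2.83-fold (adjusted p = 0.00100) and Col6a2 by 1.33 on the log2 scale (adjusted p = 0.00278). Col8a1, a short-chain collagen of vessel walls, rose by 1.86 (SE 0.47, adjusted p = 0.0175), a call ended by leaving out replicate 1 or 2 of CTRL, or replicate 3 of DT 5 DPA. The fibre-surface collagens Col12a1 (log2 fold change 0.99, adjusted p = 0.115) and Col14a1 (0.70, adjusted p = 0.294) did not pass.

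Adhesive and matricellular genes included some of the largest differences at 5 DPA. Fn1 (chromosome 1, 71585520 to 71653200, minus strand), which encodes fibronectin, had 1119, 861, 2168 and 1062 CPM in DT 5 DPA, against 301, 129.9 and 191.9 CPM in CTRL. DT 5 DPA replicate 3 was the highest, all 4 were above every CTRL library, and the log2 fold change was 2.65 (SE 0.49, adjusted p = 0.00103). Thbs1, thrombospondin 1, which binds and activates latent TGF-beta, had 288.2, 97.85, 276.2 and 140 CPM in DT 5 DPA, against 34.38, 21.45 and 56.89 CPM in CTRL. Its DT 5 DPA values varied widely among themselves and did not reach down to CTRL (log2 fold change 2.42, SE 0.38, adjusted p = 0.000148). Postn, the matricellular protein periostin, rose 3.35-fold (adjusted p = 0.00449), and Fstl1, a secreted follistatin-like glycoprotein, by 1.31 on the log2 scale (adjusted p = 0.00416). Sparc had 876.2, 757.4, 1143 and 888.2 CPM in DT 5 DPA, against 375, 268.9 and 625.3 CPM in CTRL, a rise of 1.11 (SE 0.27, adjusted p = 0.0126) that was lost without CTRL replicate 1 or 2. Tnc, tenascin C of remodelling tissue, had 22.97, 26.69, 25.48 and 24.62 CPM in DT 5 DPA, against 10.36, 22.35 and 7.311 CPM in CTRL. The groups were barely apart and the difference did not pass (log2 fold change 0.90, SE 0.55, adjusted p = 0.393).

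Of the small proteoglycans, Bgn (biglycan, a binder of collagen and growth factors) had 392.9, 345.7, 417.2 and 348.1 CPM in DT 5 DPA, against 205, 125.9 and 152.5 CPM in CTRL, and rose by 1.22 on the log2 scale (SE 0.25, adjusted p = 0.00315). Lum (lumican) and Dcn did not pass, with log2 fold changes of 1.16 (adjusted p = 0.127) and 0.62 (adjusted p = 0.365), and both overlapped between the groups.

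The lysyl oxidases, which cross-link collagen and elastin, rose at 5 DPA. Lox had 40.03, 21.89, 32.34 and 31.05 CPM in DT 5 DPA, against 7.813, 3.895 and 9.462 CPM in CTRL. The lowest DT 5 DPA library stood above the highest CTRL library, and the log2 fold change was 2.15 (SE 0.42, adjusted p = 0.00168). Loxl1 rose by 1.76 (adjusted p = 0.00223) and Loxl2 by 1.41 (adjusted p = 0.00480). Fbn1, fibrillin 1 of the microfibrils around elastin, rose by 2.00 (SE 0.40, adjusted p = 0.00242). Eln, elastin itself, had a log2 fold change of 0.76 (adjusted p = 0.259), and Fbln2, fibulin 2, one of 0.76 (adjusted p = 0.285).

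Timp1 showed the largest fold change of the 43 genes at 5 DPA. It had 33.60, 17.72, 11.75 and 27.06 CPM in DT 5 DPA (512, 251, 149 and 454 counts), against 0.926, 0.9588 and 1.782 CPM in CTRL (16, 16 and 29 counts). The ranges were far apart, and the log2 fold change was 4.20 (SE 0.56, adjusted p = 2.91e-05). Timp1 (chromosome X, 20870166 to 20874735, plus strand) lies within Syn1, a neuronal synapsin gene on the opposite strand, and no source used here says how strand was treated in counting. Syn1 stood at 12.99 to 22.01 CPM in DT 5 DPA and 10.67 to 24.27 CPM in CTRL, with a log2 fold change of 0.04 (adjusted p = 0.970). Timp3, the inhibitor that is bound to matrix, had 111.9, 170.1, 253.4 and 162.9 CPM in DT 5 DPA, against 209, 100 and 267.8 CPM in CTRL. These values overlapped, and the log2 fold change was -0.14 (SE 0.30, adjusted p = 0.854). Timp3 also overlaps a gene of the other strand, Syn3, which was at 0.2996 to 4.664 CPM over all groups. The TPM ratio of Timp1 to Timp3 was thus between 0.425 and 2.75 in DT 5 DPA and between 0.0406 and 0.0879 in CTRL. Mmp14, a membrane-bound collagenase, rose 2.12-fold (adjusted p = 0.00387). Mmp2, a gelatinase that MMP14 activates, did not pass (log2 fold change 0.99, SE 0.34, adjusted p = 0.0900).

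Other genes of matrix assembly, outside the 43, were read from a list of 117 genes, of which 112 were tested. Of these, 32 rose at 5 DPA and 0 fell, with a median log2 fold change of 0.59. Collagen-processing genes were 8 of 13. Plod3, a lysyl hydroxylase that also glycosylates collagen, rose by 1.68 (SE 0.17, adjusted p = 6.71e-07). Serpinh1, the collagen chaperone HSP47, rose by 1.59 (adjusted p = 2.08e-05), with 227.8 ± 32.2 CPM in DT 5 DPA (SD, n = 4) and 75.5 ± 23.0 CPM in CTRL (SD, n = 3). Growth factors and their receptors were 4 of 17, among them Tgfbi, a TGF-beta-induced matrix protein (log2 fold change 1.65, adjusted p = 0.00461). Matrix receptors were 4 of 19, among them Itga5, the fibronectin receptor chain (log2 fold change 1.37, adjusted p = 0.00255). Proteases were 5 of 19, among them Mmp12, the macrophage elastase (1.97, adjusted p = 0.00365). Other matrix genes were 11 of 44, among them Ecm1 (2.61, adjusted p = 1.24e-06) and Prg4, lubricin (6.22, SE 0.76, adjusted p = 9.83e-06).

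Markers of other cell types differed beside the matrix genes at 5 DPA. Of 10 listed macrophage markers 9 were in the table, and all 9 rose, and their sum was 4912 to 7283 CPM in DT 5 DPA and 687 to 1736 CPM in CTRL. Of 12 fibroblast and stellate cell markers outside the 43 genes, 1 rose, Pdgfra (a growth factor receptor of fibroblasts), and the sum was 418.8 to 592.7 CPM in DT 5 DPA and 252.9 to 371.1 CPM in CTRL. Of 8 markers of mesothelium, the lining of the abdominal cavity, 2 rose, Prg4 and Lrrn4, and the sum was 196.7 to 565.8 CPM in DT 5 DPA and 59.67 to 97.02 CPM in CTRL. Much of this sum was Prg4, also counted above among the other matrix genes, with means of 220.1 CPM in DT 5 DPA and 2.944 CPM in CTRL. Means without a call were 13.37 and 15.31 CPM for Msln, 8.816 and 1.874 CPM for Upk3b, and 10.28 and 4.265 CPM for Wt1. No marker of pericytes and smooth muscle (0 of 8) or endothelium (0 of 9) passed, with sums of 401.5 to 470.3 and 587.6 to 772.0 CPM in DT 5 DPA and 241.7 to 499.8 and 613.3 to 1137 CPM in CTRL. Of 10 beta cell markers 0 passed (median log2 fold change -0.31), with sums of 32630 to 122700 CPM in DT 5 DPA and 44890 to 147800 CPM in CTRL. No marker of these lists was at 0 in all libraries of either group. The part of these cells in the matrix results was not tested.

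At 30 DPA the matrix genes stood near CTRL again. Against DT 5 DPA, 31 of the 43 genes were lower (72.1%) and 0 higher, where 13.9% of all genes were lower and 30.5% were called in either direction. The median log2 fold change was -1.23 over the 43 genes and 0.02 over all genes. Values of DT 30 DPA lay wholly below those of DT 5 DPA for 32 genes, against 16.5% of all genes. The DT 5 DPA libraries are the same as in the comparison above, so the results of the pair are not independent.

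By role, 5 of 6 fibrillar collagens, 5 of 10 basement membrane genes, 5 of 6 other collagens, 6 of 7 adhesive and matricellular genes, 3 of 3 small proteoglycans, 4 of 6 elastic fibre and cross-linking genes and 3 of 5 proteases and inhibitors were lower at 30 DPA than at 5 DPA. Timp1 had 0.5161, 1.725, 1.218 and 0.7282 CPM in DT 30 DPA (8, 27, 18 and 10 counts), against the 11.75 to 33.60 CPM of DT 5 DPA, and the log2 fold change was -4.41 (SE 0.51, adjusted p = 8.58e-07). Over the same contrast Syn1 moved the other way, by 1.72 (adjusted p = 0.00145). Fn1 had 196.6, 107.9, 116.6 and 103.0 CPM in DT 30 DPA and was 9.94-fold lower than in DT 5 DPA (adjusted p = 8.53e-06). Col1a1 had 150.8, 142.6, 133.1 and 133.3 CPM in DT 30 DPA, a narrow range, and was 4.49-fold lower than in DT 5 DPA (adjusted p = 6.22e-06). Col3a1 was 4.60-fold lower (adjusted p = 1.78e-06), Lox 5.49-fold lower (adjusted p = 4.44e-05) and Thbs1 5.31-fold lower (adjusted p = 1.22e-05). Of the 12 genes that did not pass, Loxl2 had a log2 fold change of -0.61 (adjusted p = 0.0953), Tnc of -1.28 (adjusted p = 0.0574) and Timp3 of 0.26 (adjusted p = 0.505). Macrophage markers were lower too, 9 of 9, at a sum of 506.2 to 1112 CPM in DT 30 DPA. Mesothelial markers were lower in 4 of 8 and higher in 1 (Msln), at 48.42 to 139.3 CPM in DT 30 DPA, against 196.7 to 565.8 CPM in DT 5 DPA. Much of the latter sum was Prg4, with means of 3.288 CPM in DT 30 DPA and 220.1 CPM in DT 5 DPA. Fibroblast and stellate cell markers were lower in 3 of 12, at 247.9 to 285.2 CPM in DT 30 DPA, against 418.8 to 592.7 CPM in DT 5 DPA. Beta cell markers were higher in 9 of 10, at 127000 to 308600 CPM in DT 30 DPA, against 32630 to 122700 CPM in DT 5 DPA. Between DT 30 DPA and CTRL 0 of these 10 passed (median log2 fold change 0.96). Of the other lists, 3 of 4 alpha cell markers were higher and 1 lower, and 2 of 9 endothelial, 2 of 7 duct and 1 of 7 Schwann cell markers were higher. The part of these cells in the fall of the matrix genes was not tested. Among the listed genes of matrix assembly, 42 were lower and 4 higher, with Mmp15, Itga3 and Ddr1 among the higher ones.

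Against CTRL, 0 of the 43 genes passed the edgeR test at 30 DPA, where 0.233% of all genes did; 1 had an unadjusted p under 0.05, and DESeq2 called 0. The median log2 fold change was 0.04, with 25 genes above 0 and 18 below. The estimate was -0.66 for Fn1 (SE 0.44, adjusted p = 0.358) and -0.22 for Timp1 (SE 0.50, adjusted p = 0.817), while Col1a1 was at 0.14 and Col3a1 at 0.19. Loxl2, a lysyl oxidase that also acts on basement membrane collagen, was the one gene whose groups did not overlap in CPM, against 7.5% of all genes wholly higher. On deposited TPM it overlapped, at 12.24 to 13.83 TPM in DT 30 DPA and 5.987 to 12.91 TPM in CTRL. It had 37.48, 31.24, 40.61 and 41.00 CPM in DT 30 DPA, against 21.07, 12.88 and 30.54 CPM in CTRL. In CPM every DT 30 DPA library stood above CTRL, by less than 1 CPM at the closest, and the log2 fold change was 0.81 (SE 0.30, adjusted p = 0.103). Without CTRL replicate 3, Loxl2 (1.15, adjusted p = 0.0180) and Col5a3 (1.17, adjusted p = 0.0388) passed. A p that misses the threshold does not show that the 30 DPA level equals CTRL.

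At 10 weeks on SD, no matrix gene differed between DT and untreated islets by edgeR (0 of 43, against 0.0341% of all genes). An unadjusted p under 0.05 was reached by 11 genes and DESeq2 called 1, Col6a3. The median log2 fold change was 0.53, and 40 of the 43 estimates were above 0. For 16 genes the DT SD values in CPM lay wholly above CTRL SD, where 8.39% of all genes did so. They included the collagens Col5a1, Col5a2, Col6a3, Col8a1, Col12a1 and Col14a1, and Lox, Loxl2, Timp2 and Timp3. On deposited TPM all of the 16 but Fbn1 overlapped. Col6a3, for example, was at 2.293 to 5.634 TPM in DT SD and 1.886 to 3.054 TPM in CTRL SD. Fbn1 stayed apart narrowly, at 2.568 to 7.944 TPM and 1.604 to 2.544 TPM. No marker of another cell type passed the test, but some summed marker levels were wholly higher in DT SD as well. Mesothelial markers summed to 48.07 to 63.39 CPM in DT SD and 39.79 to 43.11 CPM in CTRL SD. Duct markers summed to 427.2 to 625.9 CPM in DT SD and 305.6 to 360.1 CPM in CTRL SD. Much of the duct sum was Spp1, also among the listed genes of matrix assembly, with means of 286.1 CPM in DT SD and 164.6 CPM in CTRL SD. Beta cell markers summed to 232600 to 254700 CPM in DT SD and 163400 to 185600 CPM in CTRL SD. Fibroblast and stellate markers overlapped, at 137.1 to 296.0 CPM in DT SD and 182.7 to 222.8 CPM in CTRL SD. The part of these cells was not tested. Col6a3 had 46.94, 32.84, 21.13 and 29.40 CPM in DT SD, against 18.05, 13.84 and 16.48 CPM in CTRL SD (log2 fold change 1.01, SE 0.28, adjusted p = 0.268). Fbn1 had 67.09, 29.75, 23.99 and 24.24 CPM in DT SD, against 15.24, 13.36 and 14.20 CPM in CTRL SD (1.34, SE 0.40, adjusted p = 0.320). In both genes DT SD replicate 1 was the highest library. Type I and III collagen overlapped between the groups, with Col1a1 at 98.72, 78.62, 49.33 and 77.09 CPM in DT SD, against 63.68, 49.38 and 40.52 CPM in CTRL SD (0.57, adjusted p = 0.657). Fn1 had a log2 fold change of 0.50 (SE 0.45), Timp1 of 0.67 (SE 0.54), Col4a1 of 0.10 (SE 0.24) and Mmp14 of -0.04 (SE 0.23), so that none of the genes with the largest differences at 5 DPA passed here.

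STZ islets on SD gave 0 of 43 against CTRL SD by edgeR (0.00568% of all genes), with 0 at an unadjusted p under 0.05 and 0 by DESeq2. The median log2 fold change was 0.05. Col4a1 was the one gene without overlap in CPM, in a comparison where 3.28% of all genes were wholly lower. It had 114.6, 122.8, 94.27 and 129.2 CPM in STZ SD, against 166.4, 139.4 and 136.1 CPM in CTRL SD (log2 fold change -0.35, adjusted p = 0.710). On deposited TPM it overlapped, at 17.31 to 33.87 TPM in STZ SD and 26.85 to 48.53 TPM in CTRL SD. Col1a1 (-0.06, SE 0.30), Col3a1 (-0.17, SE 0.27) and Sparc (-0.33, SE 0.26) did not pass. Timp1 was near the counting limit in these groups, with 6, 1, 5 and 3 counts in STZ SD and 16, 5 and 5 in CTRL SD.

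On HFD, DT islets likewise gave 0 of 43 against CTRL HFD by edgeR (0.00568% of all genes), 0 at an unadjusted p under 0.05 and 0 by DESeq2, with a median log2 fold change of -0.11. In CPM, Lamb1, Dcn, Loxl1, Loxl2 and Timp3 lay wholly lower in DT HFD, as 6.4% of all genes did. On deposited TPM all of these genes overlapped, Dcn at 101.5 to 150.7 TPM in DT HFD and 114.5 to 285.8 TPM in CTRL HFD. Dcn had 96.89, 123 and 104.1 CPM in DT HFD, against 135.1, 133.8, 221.1 and 186.9 CPM in CTRL HFD (-0.65, adjusted p = 0.457). Col1a1 had 56.24, 71.15 and 67.22 CPM in DT HFD, against 66.51, 57.79, 69.27 and 65.52 CPM in CTRL HFD, one range within the other (0.00, SE 0.30). STZ HFD against CTRL HFD also gave 0 of 43 (0.471% of all genes), with 5 at an unadjusted p under 0.05 and 0 by DESeq2, and a median of 0.14. In CPM, Dcn, Bgn, Eln, Lox and Timp1 lay wholly higher in STZ HFD, as 4.22% of all genes did. On deposited TPM, STZ HFD replicate 4, the library rich in acinar RNA, was within or below the CTRL HFD range for each of them. There Eln was at 6.116 TPM, against 4.892 to 9.859 TPM in CTRL HFD. Dcn was at 77.69 TPM, against 114.5 to 285.8 TPM in CTRL HFD. STZ HFD replicate 3 also lay within the CTRL HFD range for Dcn (193.1 TPM), Bgn (75.85 TPM, CTRL HFD up to 86.37 TPM) and Lox (1.263 TPM, CTRL HFD up to 1.277 TPM). So did replicate 1 for Dcn and replicate 2 for Bgn. Pericyte and smooth muscle markers summed to 365.6 to 448.2 CPM in STZ HFD and 206.4 to 360.2 CPM in CTRL HFD, without overlap, and 1 of the 8, Tagln, passed the test as higher. Fibroblast and stellate markers summed to 210.1 to 309.3 CPM in STZ HFD and 140.4 to 220.6 CPM in CTRL HFD, and 0 of 12 passed. The part of these cells was not tested. Eln had 28.86, 31.98, 36.76 and 48.60 CPM in STZ HFD, against 15.70, 15.18, 20.75 and 24.24 CPM in CTRL HFD (0.94, SE 0.34, adjusted p = 0.200). Lox had 5.417, 3.796, 3.626 and 7.589 CPM in STZ HFD, against 2.443, 2.851, 1.788 and 3.393 CPM in CTRL HFD (0.95, SE 0.38, adjusted p = 0.247). Eln passed when libraries with enterocyte RNA were left out of the fit (0.93, SE 0.20, adjusted p = 0.0284). None of those libraries belonged to STZ HFD or CTRL HFD, so the compared libraries were the same and mainly the SE differed.

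In untreated islets no matrix gene passed the test between the diets. CTRL HFD against CTRL SD gave 0 of 43 by edgeR (0.0% of all genes), with 2 at an unadjusted p under 0.05 and 0 by DESeq2. The median log2 fold change was 0.15, and Lamb1 and Col14a1 lay wholly higher in CTRL HFD, as 3.46% of all genes did.

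After DT, 4 matrix genes were lower on HFD than on SD and 0 higher, 9.3% of the 43, in a comparison where 8.46% of all genes were lower and 23.5% were called in either direction. The share is close to that of all genes. The 4 genes were Timp3, Dcn, Fstl1 and Loxl2, and the median log2 fold change of the 43 was -0.41. Timp3 had 116.4, 68.22 and 123.6 CPM in DT HFD, against 247.7, 243.3, 232.7 and 211.3 CPM in DT SD, without overlap (-1.19, SE 0.31, adjusted p = 0.00973). Dcn had its 96.89 to 123 CPM in DT HFD, against 360.2, 215.5, 164.9 and 263.8 CPM in DT SD (-1.22, SE 0.37, adjusted p = 0.0210). Fstl1 had 29.65, 31.09 and 32.55 CPM in DT HFD, against 80.20, 54.40, 45.04 and 54.22 CPM in DT SD (-0.91, SE 0.28, adjusted p = 0.0219). Loxl2 had 17.30, 15.81 and 17.40 CPM in DT HFD, against 33.75, 30.76, 25.85 and 30.26 CPM in DT SD (-0.84, SE 0.30, adjusted p = 0.0453). In CPM all 4 genes were below DT SD in each DT HFD library, and 10 of the 43 genes lay wholly lower, where 18.4% of all genes did. On deposited TPM Timp3 stayed apart, at 21.38 to 33.93 TPM in DT HFD and 34.1 to 53.43 TPM in DT SD. Dcn (101.5 to 150.7 and 102.7 to 248.2 TPM), Fstl1 and Loxl2 overlapped. As a share of counts, the 43 genes took 0.1985% to 0.2362% in DT HFD and 0.1618% to 0.3017% in DT SD. The fibrillar collagens did not pass, with Col1a1 at -0.23 (SE 0.30) and Col3a1 at -0.60 (SE 0.28, adjusted p = 0.114).

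**Figure D4:**
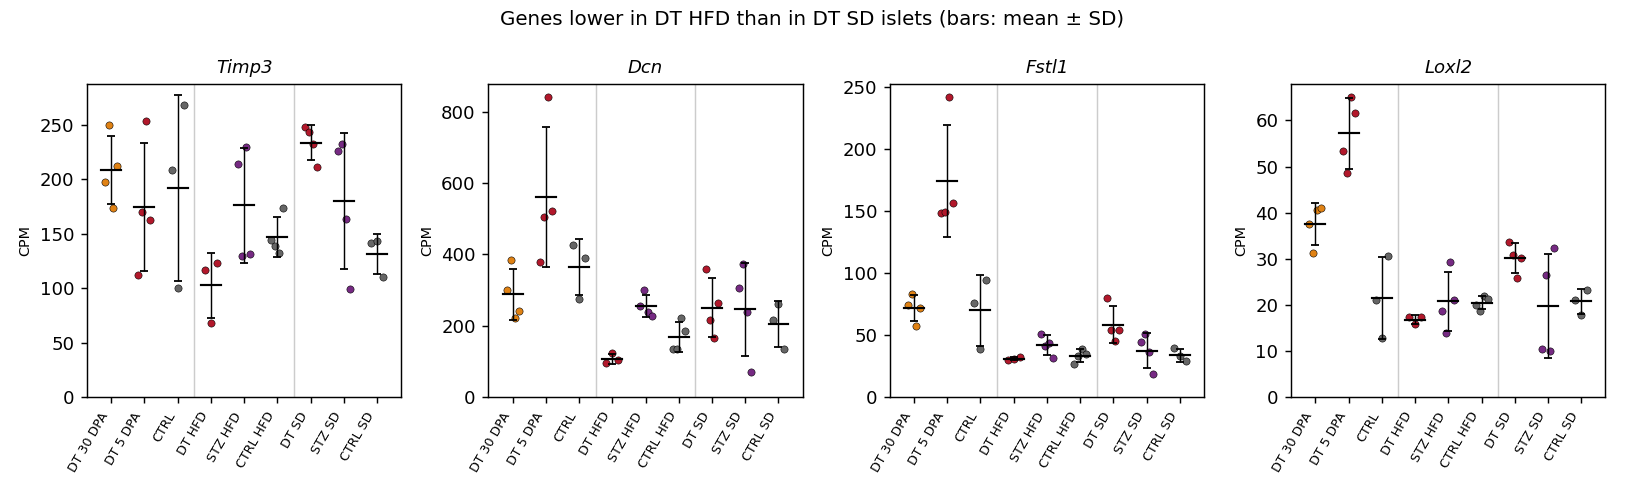
Mean level ± SD (bars, CPM from 0) of Timp3, Dcn, Fstl1 and Loxl2 in the 9 groups, with n of 3 or 4 libraries. The DT HFD mean is below the DT SD mean in each panel.

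None of the 4 calls was kept in every setting. Without DT HFD replicate 2, 0 of the 43 genes passed, 1 without DT HFD replicate 3 or DT SD replicate 1, and 2 without DT HFD replicate 1. With the acinar score as a covariate 0 passed, and the median log2 fold change was -0.43. Acinar markers summed to 7075 to 20320 CPM in DT HFD and 39590 to 172500 CPM in DT SD. Endothelial markers (3 of 9) and fibroblast markers (3 of 12) were lower too, with sums of 420.9 to 559.2 and 154.6 to 214.0 CPM in DT HFD and 627.0 to 817.7 and 137.1 to 296.0 CPM in DT SD. Of 10 beta cell markers 7 were lower, with sums of 30090 to 111300 CPM in DT HFD and 232600 to 254700 CPM in DT SD. Pericyte (1 of 8), mesothelial (1 of 8) and duct markers (1 of 7) were lower as well. Of 15 lymphocyte markers 9 were higher, with sums of 1774 to 3103 CPM in DT HFD and 115.8 to 1132 CPM in DT SD. Of 10 enterocyte markers 4 were higher, with sums of 19.07 to 2949 CPM in DT HFD and 65.78 to 72.57 CPM in DT SD, and of 9 macrophage markers 1 was. The part of these cells in the result was not tested, apart from the acinar covariate and the fit without enterocyte RNA, in which 7 matrix genes were called. Among the listed genes of matrix assembly 16 were lower and 6 higher, with Ogn, a small proteoglycan, at -2.09 (SE 0.37, adjusted p = 0.00315) and Tgfb1, the cytokine TGF-beta 1, at 1.51 (SE 0.34, adjusted p = 0.00549).

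The test of the difference itself, DT against CTRL on HFD minus the same on SD, called 0 of the 43 by edgeR (0.0% of all genes), with 8 at an unadjusted p under 0.05 and 0 by DESeq2. Timp3 had an interaction of -1.35 on the log2 scale (SE 0.43, adjusted p = 0.282). It passed when libraries with enterocyte RNA were left out (-1.46, adjusted p = 0.0404).

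After STZ, the diet gave 0 of 43 by edgeR (0.136% of all genes), with 6 at an unadjusted p under 0.05. DESeq2 called 1, Timp1. It had 1.548, 1.022, 1.305 and 0.8074 CPM in STZ HFD (28, 14, 18 and 5 counts), against 0.4262, 0.09193, 0.5191 and 0.1968 CPM in STZ SD (6, 1, 5 and 3 counts). The groups did not overlap in CPM, on few counts. The log2 fold change was 1.94 (SE 0.53, adjusted p = 0.0838) by edgeR and 1.98 (adjusted p = 0.0265) by DESeq2. Without STZ SD replicate 3, Timp1 passed in edgeR too (2.25, adjusted p = 0.0264). Timp1 and Lox lay wholly higher in STZ HFD in CPM, as 1.22% of all genes did. On deposited TPM both overlapped, with Timp1 at 0.6484 to 3.744 TPM in STZ HFD and 0.1623 to 0.9768 TPM in STZ SD. The matching interaction for STZ called 0 of 43 (0.0% of all genes; 2 at an unadjusted p under 0.05, 0 by DESeq2), with Timp1 at 2.42 (SE 0.77, adjusted p = 0.659).

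Likeness of pattern was described by Spearman's rho over the 33 libraries with the mean log2 CPM of Col1a1, Col1a2, Col3a1, Col5a1 and Col5a2, as a description to which the rise at 5 DPA contributes. Outside the 43 genes, the most alike were Myadm (0.93), Serpinh1 (0.928), Antxr1, a collagen-binding receptor (0.921), and Ehd2 (0.906). Within the 43, Col6a2 was the most alike outside the fibrillar collagens (0.933), and Tnc (0.397), Timp3 (0.466) and Col12a1 (0.555) were the least. Over the 22 libraries at 10 weeks alone, the rho of Tnc was -0.037.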

How the data were processed

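Bulk RNA-seq of mouse islets was read from a deposited table with 34 libraries. Per the labels' protocols, the RNeasy Mini kit was used for RNA and the QIAseq stranded mRNA kit for libraries. The genome build is mm10, per the submitters' processing notes. No source used here names the aligner, the counter or the strand setting. The deposited values are total counts per gene with no normalization, per the file headers, and every test used them. The authors' TPM values served to compare levels between genes, and their RPKM values were not used. A deposited column headed CPM sums to 0.784 to 2.106 times what CPM sums to, was treated as a score and was not used. There were 0 columns of other samples.

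The labels put 33 libraries in 9 groups. The other library has a title and a treatment label that disagree, so it entered no comparison. Every pair of libraries within a group differed by more than counting noise (smallest chi-square per degree of freedom 27.27). The IDs of 48349 genes (99.26%) were found in GENCODE M21.

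The filter filterByExpr (edgeR 4.0.16, R 4.3.3; count minimum 10, total minimum 15) left 17616 genes. TMM scaling and 1 robust quasi-likelihood fit over 33 libraries with group as the factor gave 12 contrasts, and p-values were adjusted over all genes tested (Benjamini-Hochberg, called below 0.05). SE values are on the log2 scale. CPM are on TMM-scaled library sizes. The fits were tested on simulated data with known changes. Other settings were DESeq2 1.42.0 size factors and its Wald test, no low-count filter, hormone genes left out before scaling, the compared groups alone, a replicate block, the acinar score as a covariate, fits without libraries with enterocyte RNA or with a high lymphocyte score, and leaving out each library. The members and lists were chosen with earlier results of these data known. The rule for named genes takes Col1a1, Col3a1, Col4a1, Col6a3, Fn1, Sparc, Lox, Timp1, Postn, Tnc, Mmp14 and Lamb1, up to 12 called members per comparison, up to 2 members nearest to the threshold, the extremes of each role, up to 12 called genes of the matrix-assembly list and the 10 genes most like the fibrillar collagens. Other genes, such as those in counts of 5 or fewer, were picked after their values were seen. Figures used matplotlib 3.10.9. Some listed genes of matrix assembly are not reported here.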

Additional observations from a re-analysis of the deposited data

Results flagged for a closer look

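Single libraries stood apart from the other 3 of their group in 13 of 258 combinations of a gene and a group of 4, by Dixon's criterion at the 95% level. Chance gives about 1 in 20. DT 5 DPA replicate 3 was high for Col5a2 (176.0 CPM, others 121.7 to 129.3), Lama4 (60.42 CPM, others 36.29 to 40.35), Fstl1 (241.5 CPM, others 148.8 to 156.7) and Fbn1 (217.5 CPM, others 120.0 to 128.0). DT 30 DPA replicate 1 was high for Fn1 (196.6 CPM, others 103.0 to 116.6) and Mmp14 (48.84 CPM, others 38.96 to 39.80), and replicate 2 for Col18a1 (53.15 CPM, others 40.34 to 42.26). DT SD replicate 1 was high for Nid1 (130.5 CPM, others 75.01 to 81.75) and Fbn1 (67.09 CPM, others 23.99 to 29.75). STZ SD replicate 4 was low for Eln (6.035 CPM, others 30.89 to 34.57) and Fbn1 (9.643 CPM, others 15.16 to 16.27), and STZ SD replicate 3 for Col18a1 (13.18 CPM, others 23.35 to 24.45). CTRL HFD replicate 5 was high for Lamb1 (39.1 CPM, others 34.15 to 34.96).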

How the results depend on the processing

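The counts of matrix genes called at 5 DPA against CTRL (25), at 30 DPA against 5 DPA (31) and on HFD against SD after DT (4) moved with some settings. For 5 DPA against CTRL, 13 were called with the compared groups alone, 13 without libraries with enterocyte RNA (which leaves 1 DT 5 DPA library), 7 without libraries with a high lymphocyte score (which leaves 1 CTRL library, assumed to vary like the other groups), and 20 to 28 with 1 library left out. Of the 25 genes, 20 were called with any 1 library left out, and 7 (Bgn, Col1a1, Col1a2, Col3a1, Col6a1, Fn1 and Timp1) in every setting run. Lamb1 changed sign without libraries with a high lymphocyte score (-0.19); the cause was not tested. For 30 DPA against 5 DPA leaving out 1 library gave 24 to 31, and 21 of the 31 genes were called in every setting. For 30 DPA against CTRL it gave 0 to 2. For HFD against SD after DT the counts were 7 with DESeq2, 7 without libraries with enterocyte RNA, 0 with the acinar covariate and 0 to 4 with 1 library left out. DT SD against CTRL SD gave 1 with DESeq2 and 1 with the compared groups alone, STZ HFD against CTRL HFD 1 without libraries with enterocyte RNA, STZ HFD against STZ SD 1 with DESeq2 and 0 to 1 with 1 library left out, and the DT interaction 1 without libraries with enterocyte RNA.

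Over all genes, 5 DPA against CTRL called 949, against 320 with the compared groups alone and 329 without libraries with enterocyte RNA, and 30 DPA against CTRL called 41, against 4273 without CTRL replicate 3 and 0 with several other libraries left out. DT HFD against DT SD called 4136, against 0 without DT HFD replicate 2. Same-numbered libraries did not all deviate together (correlations -0.123 to 0.647), so the numbers were not taken to pair the libraries, and whether some of them share a batch was not tested; with the replicate block 26, 31 and 6 matrix genes were called in the 3 comparisons named first. Comparisons with DT HFD could not be fitted without libraries with a high lymphocyte score, since all 3 DT HFD libraries are among them. Groups of 3 or 4 limit what the tests can call, and Timp1 rested on 1 to 28 counts per library at 10 weeks.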

Other observations

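The library with disagreeing labels, titled as a CTRL HFD replicate with the treatment label DT, had 138 CPM of Col1a1, 238 CPM of Col3a1, 79.4 CPM of Fn1, 98.8 CPM of Timp3 and 2.49 CPM of Timp1.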
